A study of Mus musculus with 2 samples.

Results

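Chemokines, interleukins and their receptors were examined in RNA-seq of sorted mouse lung epithelium. Gene symbols that begin with Ccl, Ccr, Cxcl, Cxcr or Il and a digit, or with Cx3c, were taken, with Ccl6 left out. The rule gave 141 of 22072 gene symbols, of which 61 encode receptors or receptor chains and 79 encode ligands or soluble antagonists. The remaining gene, Il4i1, encodes an enzyme that shares only the prefix.

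Adult mice of both genotypes ate doxycycline food (625 mg/kg) for 16 days. Lung cells were sorted as lineage-negative, CD326-positive and CD24-intermediate, a gate that enriches secretory, non-ciliated airway cells. RNA of 4 mice per genotype was pooled into 1 library, so there were 2 libraries. Control mice were tetOCre/Mst1-flx/flx;Mst2-flx/flx and lacked the transactivator that doxycycline needs to switch on Cre. The other mice carried Scgb1a1-rtTA as well, with the transactivator driven by the promoter of Scgb1a1, a club cell gene. The transactivator and active Cre cannot be told apart from the loss of Mst1 and Mst2, which encode kinases of the Hippo pathway.

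Levels are in FPKM, fragments scaled by transcript length and by library size, which can be compared between genes. With 1 pool per genotype no value has a replicate error and no difference was tested. Intervals are exact (Clopper-Pearson) 95% intervals for counting error only, made from approximate reads, and they do not cover differences between mice, sorts or library preparations. About 8780000 and 8340000 reads lay on the listed transcripts of the control and the other library. The targeted kinase genes were close in both libraries and so do not check the label, with FPKM of 5.38 and 4.71 for Stk4 (Mst1) and of 7.28 and 7.09 for Stk3 (Mst2), and the library with Scgb1a1-rtTA is named by its label, Mst1/2-deleted. Club cell genes were abundant, with a summed FPKM of 12019 and 10308, of which Cyp2f2 gave 4694 and 5305. Of 10 measured club cell genes 6 were below 0 in their log2 difference, and Scgb3a1 (477 and 121) and Scgb3a2 (691 and 256) were over 1.5-fold lower. Alveolar type 2 cell genes were also abundant, with a summed FPKM of 11760 and 14628. Of this Sftpc, the surfactant protein C gene, gave 7888 and 10270. The estimate of Scgb1a1 itself failed in both libraries.

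Chemokines are small secreted proteins that guide leukocytes along gradients through G protein-coupled receptors. Interleukins act through receptor chains that recruit Janus kinases and STAT factors or, in the IL-1 and IL-17 families, adaptors that lead to NF-kappa-B. Airway and alveolar epithelium both sends such signals and carries receptors for them.

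Promoters are shown for 6 ligand genes on which the results turn. They are the IL-1 family genes Il1f9, Il1a and Il1b, all lower in FPKM in the library labelled Mst1/2-deleted, plus 3 neighbours in the CXC chemokine cluster, of which Cxcl15 was the most abundant member, Cxcl2 was lower and Cxcl1 was not. Each run is 300 bases, 250 before the transcription start site and 50 after, from RefSeq on GRCm38.p6, written 5′ to 3′ on the gene's strand. Capitals mark matches on either strand to GGG, any 5 bases and CC, a loose form of the site bound by NF-kappa-B. The positions are chr2:24186226-24186525 (plus strand) for Il1f9, chr2:129309923-129310222 (minus) for Il1a and chr2:129371090-129371389 (minus) for Il1b. Those of the neighbours, all on the plus strand, are chr5:90794284-90794583 for Cxcl15, chr5:90890995-90891294 for Cxcl1 and chr5:90903649-90903948 for Cxcl2.
Il1f9: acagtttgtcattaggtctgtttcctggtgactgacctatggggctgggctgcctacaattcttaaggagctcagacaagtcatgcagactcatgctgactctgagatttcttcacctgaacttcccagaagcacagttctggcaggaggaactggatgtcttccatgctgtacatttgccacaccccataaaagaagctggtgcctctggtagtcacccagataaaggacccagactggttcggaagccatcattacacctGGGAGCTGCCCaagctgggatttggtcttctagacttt
Il1a: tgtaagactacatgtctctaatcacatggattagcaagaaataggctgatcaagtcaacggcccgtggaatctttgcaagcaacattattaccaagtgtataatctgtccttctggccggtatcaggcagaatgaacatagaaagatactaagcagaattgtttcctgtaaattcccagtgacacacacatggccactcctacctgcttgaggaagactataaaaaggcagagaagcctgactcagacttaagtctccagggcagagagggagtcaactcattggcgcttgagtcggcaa
Il1b: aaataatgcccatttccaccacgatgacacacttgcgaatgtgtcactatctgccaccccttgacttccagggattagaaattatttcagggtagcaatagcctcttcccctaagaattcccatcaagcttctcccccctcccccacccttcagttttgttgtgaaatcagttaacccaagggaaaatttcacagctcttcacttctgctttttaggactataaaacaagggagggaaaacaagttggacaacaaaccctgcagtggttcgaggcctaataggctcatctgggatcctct
Cxcl15: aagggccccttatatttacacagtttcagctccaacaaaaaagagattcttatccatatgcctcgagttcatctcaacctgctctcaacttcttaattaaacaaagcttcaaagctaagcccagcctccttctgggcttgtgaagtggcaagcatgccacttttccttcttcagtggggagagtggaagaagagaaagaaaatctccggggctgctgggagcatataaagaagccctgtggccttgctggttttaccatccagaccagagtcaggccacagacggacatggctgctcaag
Cxcl1: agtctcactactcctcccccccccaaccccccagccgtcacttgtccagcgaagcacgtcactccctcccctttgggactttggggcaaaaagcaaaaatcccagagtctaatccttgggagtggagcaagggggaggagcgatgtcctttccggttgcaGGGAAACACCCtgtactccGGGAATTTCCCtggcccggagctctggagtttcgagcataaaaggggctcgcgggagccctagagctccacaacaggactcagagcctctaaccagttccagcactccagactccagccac
Cxcl2: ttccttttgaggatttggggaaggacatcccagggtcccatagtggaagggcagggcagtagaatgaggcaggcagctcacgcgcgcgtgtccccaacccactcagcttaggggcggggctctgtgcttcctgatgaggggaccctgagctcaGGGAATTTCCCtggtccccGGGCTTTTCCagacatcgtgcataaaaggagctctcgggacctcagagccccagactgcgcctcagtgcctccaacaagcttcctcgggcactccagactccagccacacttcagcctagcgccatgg

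The Cxcl1 and Cxcl2 promoters both held GGGAATTTCC, starting 71 bases before the start site in Cxcl1 and 97 bases before it in Cxcl2. No match was in the windows of Il1a, Il1b and Cxcl15, and Il1f9 had its matches after the start site. Of all 32851 RefSeq promoters of this length, 50.8% held at least 1 match, as did 71 of 126 promoters (56.3%) of the 104 members that were matched by symbol. Among members counted as lower below, 6 were matched and 4 of their 8 promoters held a match, 3 of these belonging to Ccl27a. A palindromic pattern of STAT factors, TTCNNNGAA, was in 8.3% of all promoters and in 14 of 126 member promoters (11.1%). Among promoters of members with FPKM of at least 1 in a library it was in 3 of 36 (8.33%). Ccl17, Il1f9 and Il18r1, the last of which was not lower, were among these genes. A match is a description of the letters only.

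Most members were barely detected. FPKM reached 1 in at least 1 library for 37 of 141 members, called measured here, and 26 were listed at 0 in both. Cxcl15, a lung chemokine known as lungkine that attracts neutrophils, held most of the signal, with 67.1% and 65.4% of the summed FPKM of all members in the control library and the other. After Cxcl15 and Cxcl17, a mucosal chemokine, came the alarmin Il33, the shared receptor chain Il6st and the IL-18 receptor chain Il18r1. These 5 genes were also the only members whose FPKM passed 25, and none of them was 1.5-fold apart.

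The library labelled Mst1/2-deleted held less of the measured members that differed most, and most of these were ligands at low levels. Counted at 1.5-fold or more on the log2(FPKM + 1) scale, which understates low genes, 8 of 37 measured members (21.6%) were lower, against 2.59% of all 9945 genes that passed the same filter. No member was higher, against 3.02% of those genes. At 2-fold, 6 members were lower and none higher, against 0.975% and 0.754% of all genes. The members lower at 1.5-fold were Il1f9, Il1a, Il1b, Ccl17, Ccl3, Ccl27a, Cxcl5 and the receptor gene Cxcr7. All but Il1f9 had FPKM under 5 in both libraries, a range in which 2.71% of all genes were lower by this rule. Il1a, Ccl17, Ccl3, Ccl27a and Cxcr7 reached FPKM of 1 in the control library alone. The filter thus admitted them only through the library where they were higher. The estimate of Ccl27a failed in the library labelled Mst1/2-deleted, which leaves 7 of 36 (19.4%).

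The median log2 difference of the 37 measured members was -0.14, with 14 above 0 and 23 below, beside 0.07 for all genes. For the 14 members that reached FPKM of 5 the median was 0.17, of opposite sign, with 8 above 0 and 6 below. The median of all genes at that filter was 0.085.

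**Figure D1:**
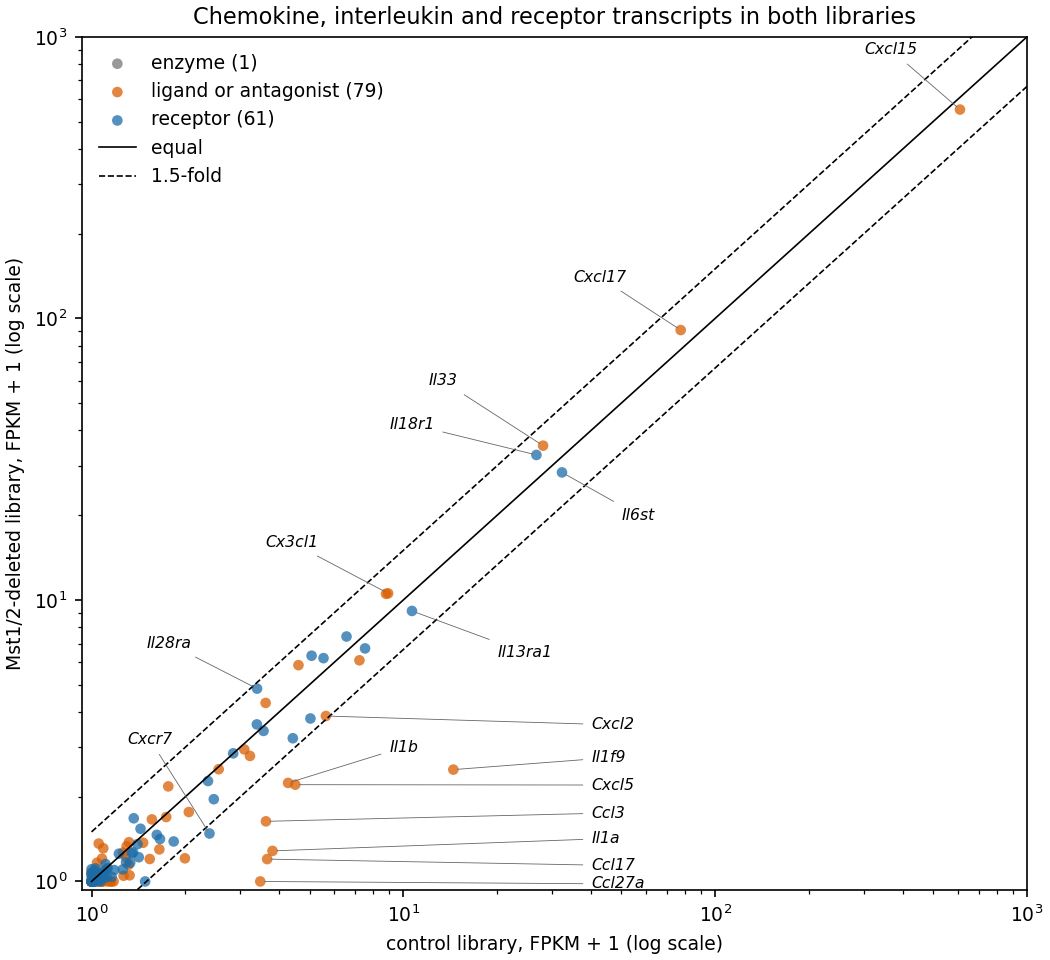
Each point is 1 of the 141 members, with FPKM + 1 in the control library on the horizontal axis and in the library labelled Mst1/2-deleted on the vertical axis, both on log scales. Points under the lower dashed line are over 1.5-fold lower, and the unlabelled one, Cxcl13, has FPKM under 1 in both libraries; Il1f9 (FPKM 13.5 and 1.496) is the farthest from the solid line of equal values, while Cxcl15 (608 and 550.3) lies close to it.

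IL-1 family ligands split by gene. Il1f9 encodes IL-36 gamma, an epithelial cytokine that acts through the receptor Il1rl2 and the shared chain Il1rap. Control FPKM was 13.5 on about 600 reads, and in the other library it was 1.496 on about 60, an 8.996-fold lower value (interval 6.85 to 11.9; chr2:24041996-24049087, mm9). By FPKM it ranked 6 of 141 members in control and 26 in the other library, and it was the only member with FPKM over 5 that passed 1.5-fold. Il1a, the gene of the alarmin IL-1 alpha, had FPKM of 2.80 and 0.284, which is 9.87-fold lower (5.54 to 18.0; chr2:129125346-129135708). Il1b, its secreted relative that needs caspase cleavage, had 3.27 and 1.24, or 2.64-fold lower (1.81 to 3.85; chr2:129190316-129196856).

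Il33, another member of this family that is stored in epithelial nuclei, did not share that direction. Its FPKM was 27.1 and 34.3, a ratio of 1.27 (1.19 to 1.35; chr19:29999604-30035205). The soluble inhibitor of IL-18, Il18bp, had FPKM of 2.09 and 1.94, with an interval that included 1 (0.663 to 1.31). The antagonist of IL-1, Il1rn, was under 1 in both libraries (0.464 and 0.372), as was Il18 (0.267 and 0.0480). Il1f5, Il1f6, Il1f8 and Il1f10 were listed at 0 in both. Of the 11 genes in this group 5 were measured, 3 of them lower and none higher at 1.5-fold. By the same rule 2.59% of all genes were lower and 3.02% higher.

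Of 3 measured receptor genes of this family 2 were above 0 and none was 1.5-fold apart on the log2(FPKM + 1) scale. Il18r1, the binding chain for IL-18, had FPKM of 25.7 and 31.7 (ratio 1.23, 1.16 to 1.31; chr1:40522397-40557699). Its partner chain Il18rap, which signalling by IL-18 needs, was far lower at 0.359 and 0.269. Il1r1, the signalling receptor for Il1a and Il1b, stood at 5.57 and 6.41 (ratio 1.15, 1.04 to 1.28). The accessory chain Il1rap, shared by the IL-1, IL-33 and IL-36 receptors, was the exception, at 3.42 and 2.23 with a ratio of 0.651 (0.549 to 0.767). On the log2(FPKM + 1) scale its difference was -0.454, which did not reach the 1.5-fold limit. Il1rl2, the receptor for Il1f9, had 0.366 and 0.676, opposite in direction to its ligand. Il1rl1, the IL-33 receptor, had 0.0899 and 0.0255, so that Il33 was abundant where its receptor was close to 0.

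CC chemokines were rare in both libraries. Only 4 of 23 were measured. Of these Ccl17, Ccl3 and Ccl9 were below 0, and the estimate of Ccl27a failed in the library labelled Mst1/2-deleted. Ccl17, a ligand of Ccr4 that draws T helper cells, had FPKM of 2.66 and 0.201 (about 37 and 2 reads), 13.2-fold lower with a wide interval (4.27 to 142; chr8:97334353-97335936). Ccl3, which attracts monocytes, had 2.62 and 0.635, or 4.13-fold lower (2.21 to 8.56; chr11:83461345-83462880). Ccl9 had 1.05 and 0.764, with an interval that included 1 (0.510 to 1.03). Ccl27a had 2.48 in the control library, where every row carried an accepted estimate, and is listed at 0 in the other, so no fold is given. Il11ra1, which adjoins Ccl27a, failed in the same library. Their near-identical copies Ccl27b and Il11ra2 were listed at 0 in both.

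CXC and CX3C ligands divided evenly, with 4 of 8 measured members above 0 and 4 below. Cxcl15 had FPKM of 608 and 550.3 (ratio 0.905, 0.891 to 0.919; chr5:91223560-91232093). Cxcl17 had 76.5 and 89.8, a ratio of 1.17 (1.10 to 1.26; chr7:26185072-26197905). The transmembrane chemokines, which are anchored in the cell surface by a mucin-like stalk, were alike in level and in difference. Cx3cl1, or fractalkine, had FPKM of 7.93 and 9.55 (ratio 1.20, 1.08 to 1.34). Cxcl16 had 7.80 and 9.51, a ratio of 1.22 (1.08 to 1.38). Neutrophil attractants that act on Cxcr2 differed among themselves. Cxcl5 had FPKM of 3.50 and 1.21, 2.90-fold lower (2.11 to 4.13; chr5:91188325-91190651). Cxcl2 had 4.64 and 2.87, 1.62-fold lower in FPKM (1.21 to 2.18) and just outside the 1.5-fold limit on the log2(FPKM + 1) scale. Cxcl1 had 2.62 and 3.31, a ratio of 1.26 whose interval included 1 (0.901 to 1.79). The interferon-inducible Cxcl10 had 6.23 and 5.10, with an interval of its ratio that also included 1 (0.648 to 1.03).

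Chemokine receptors were sparse, with 3 of 19 measured. Cxcr2, the receptor for Cxcl1, Cxcl2 and Cxcl5, had FPKM of 2.56 and 2.43, close to equal (ratio 0.947, 0.773 to 1.16). Cxcr7, a scavenging receptor for Cxcl12, had 1.39 and 0.480, 2.89-fold lower (1.90 to 4.51; chr1:92100578-92112863), and was the member nearest inside the limit. Cxcr4, the signalling receptor for Cxcl12, had 1.47 and 0.960, a ratio of 0.655 (0.435 to 0.967). Cxcl12 itself had 0.262 and 0.266. The receptors of other measured ligands were under 1 in both libraries, with Cx3cr1 at 0.119 and 0.0366, Cxcr6, the Cxcl16 receptor, at 0.619 and 0.464, and Ccr4 at 0.105 and 0.0878.

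**Figure D2:**
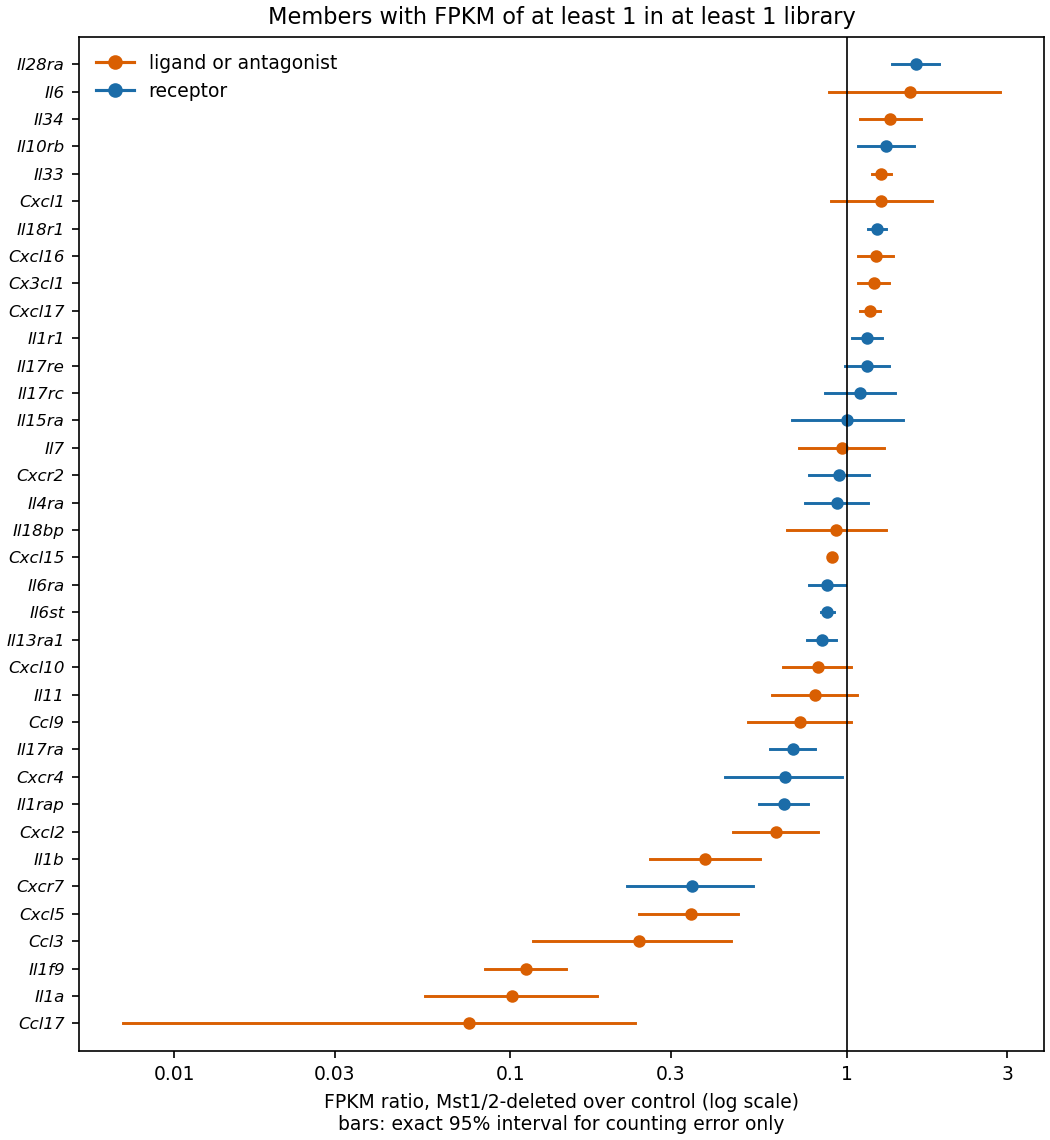
The FPKM ratio of the library labelled Mst1/2-deleted over the control library is shown on a log axis for 36 measured members, with exact 95% intervals for counting error as bars; Ccl27a is left out because its estimate failed. The 3 lowest points are the ligands Ccl17, Il1a and Il1f9, and the highest is the receptor chain Il28ra at 1.60.

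Of 10 genes of gp130 cytokines and their receptors, most of which signal through the chain encoded by Il6st, 4 were measured. Il6st had FPKM of 31.2 and 27.4 (ratio 0.876, 0.838 to 0.915; chr13:113254278-113297068). Il6ra, the binding chain for IL-6, had 6.53 and 5.73, with the same ratio of 0.876 (0.774 to 0.991). Il6 had 0.762 and 1.18 on about 22 and 31 reads, with an interval that included 1 (0.883 to 2.86). Il11, a stromal and epithelial cytokine of this family, had 2.22 and 1.79 (ratio 0.807, 0.599 to 1.07). Its receptor Il11ra1 had 0.486 in control, below its ligand, and a failed estimate in the other library.

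Of 5 IL-17 receptor genes 3 were measured, and none of the cytokines was. Il17ra, the shared chain, had FPKM of 4.03 and 2.79 (ratio 0.692, 0.591 to 0.806). Il17rc, its partner for IL-17A and IL-17F, had 2.39 and 2.61, and Il17re, its partner for IL-17C, had 4.54 and 5.21. Both of their intervals included 1 (0.864 to 1.39 and 0.987 to 1.34). Il17rb (0.0834 and 0.0567) and Il17rd (0.182 and 0.0980), further receptor chains of this family, were under 1. Il17a had 0.0886 in control and a listed 0 in the other library, Il17f was listed at 0 in both, and Il17c had 0.0543 and 0.363.

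The receptor for IL-4 and IL-13 was present with little of either ligand. Il13ra1 had FPKM of 9.65 and 8.14 (ratio 0.843, 0.764 to 0.929). Il4ra, its partner, had 1.36 and 1.27 (interval 0.750 to 1.16). Il13 was listed at 0 in both libraries, and Il4 had a listed 0 in control and 0.0756 in the other library. Cytokines other than Il4 that use the common gamma chain were scarce, with Il7 at 1.56 and 1.504 and Il15 at 0.0799 and 0.205. The gamma chain itself, Il2rg, had 0.834 and 0.387, and Il15ra had 1.85 in both.

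The largest difference in the higher direction was that of Il28ra, the binding chain for lambda interferons, which defend epithelia against viruses. Its FPKM was 2.39 and 3.84, a ratio of 1.60 (1.37 to 1.89; chr4:135242372-135264095), just outside the 1.5-fold limit on the log2(FPKM + 1) scale. Its partner chain Il10rb, shared with the IL-10 and IL-22 receptors, had 4.08 and 5.34, a ratio of 1.31 (1.08 to 1.59). Both chains of this receptor thus lay above 1, while its ligands Il28a and Il28b were listed at 0 in both libraries. Il22ra1, which would pair with Il10rb for IL-22, had 0.0860 and 0.0795. Il34, a ligand of the macrophage receptor Csf1r, had 3.61 and 4.87, a ratio of 1.35 (1.09 to 1.66).

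Of the measured receptor chains 1 of 16 (6.25%) was lower at 1.5-fold, and of the measured ligands and antagonists 7 of 21 (33.3%), Ccl27a with its failed estimate included, beside 2.59% of all genes. Summed over all receptor chains, FPKM was 116 and 114. Summed over ligands and antagonists without Cxcl15, it was 182 and 177. Among the genes counted as lower, Il1a, Ccl17, Ccl3, Ccl27a and Cxcr7 passed the filter through the control library alone. Whether ligands and receptors differ in this respect was not tested.

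Some members that neighbour each other in the genome shared a direction, and others did not. Il1a and Il1b, 54.6 kb apart, were both lower, and Il17re and Il17rc, 0.703 kb apart, both had ratios slightly above 1 (1.15 and 1.09). On chromosome 5, Cxcl5, Cxcl3, Cxcl15, Cxcl1 and Cxcl2 lie within 147 kb (chr5:91188325-91334964, mm9). Cxcl3 ends 6.44 kb before Cxcl15, yet Cxcl3 had FPKM of 0.316 and 0.147. Cxcl1 and Cxcl2 lie 10.8 kb apart and had ratios of 1.26 and 0.618. On chromosome 8, Cx3cl1 lies between Ccl22 and Ccl17 in 66.4 kb (chr8:97269584-97335936). Ccl22 (0.650 and 0.3001) and Ccl17, which share the receptor Ccr4, were both lower in FPKM, while Cx3cl1 between them had a ratio of 1.20. On chromosome 2, Il1f9 was the only one of 6 neighbouring IL-1 family genes within 198 kb to reach FPKM of 1. On chromosome 1, Il18r1 starts 0.137 kb after the end of Il1rl1 and had FPKM of 25.7 where Il1rl1 had 0.0899 in the same library. FPKM of such close neighbours depends on how Cufflinks assigned reads at their ends.

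**Figure D3:**
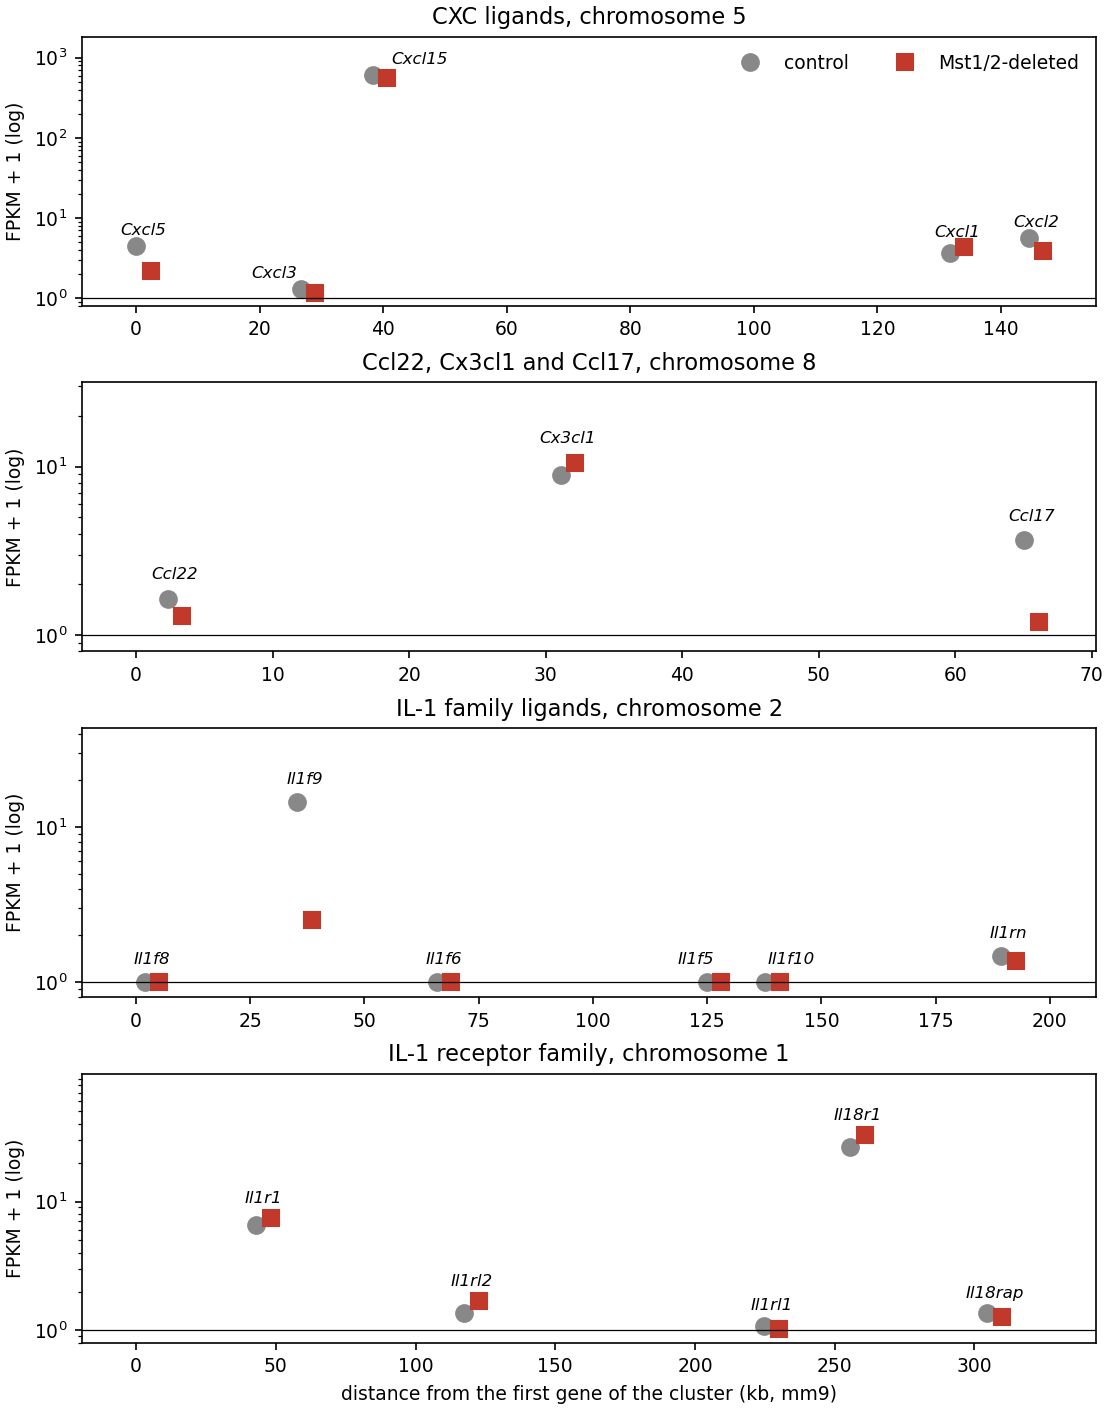
FPKM + 1 on a log axis is plotted for members of 4 gene clusters against distance in kb from the first gene of each cluster, with a grey circle for the control library and a red square for the library labelled Mst1/2-deleted, set slightly apart sideways. Cxcl15, Cx3cl1, Il1f9 and Il18r1 each stand above their neighbours in the control library, and of these only Il1f9 (13.5 and 1.496) is over 1.5-fold apart.

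The other genes of these pathways were for the most part close to equal. A list of 86 signalling genes, holding Janus kinases, STAT factors, SOCS inhibitors, adaptors, NF-kappa-B subunits and receptors with other names, had 65 measured members, 4 higher (6.15%) and none lower at 1.5-fold, beside 3.02% and 2.59% of all genes. The list's median log2 difference was 0.09, close to the 0.07 of all genes. Cish, a feedback inhibitor induced by STAT5, had FPKM of 2.73 and 7.09 (ratio 2.60, 2.15 to 3.14). Pitpnm3, described as a receptor for CCL18, had 5.82 and 9.33, a value that includes rows without an accepted estimate. The IL-1 receptor kinase gene Irak1, also counted as higher, was listed at 0 in the control library because its estimate failed there, so no difference was measured for it. The 5 most abundant of the list were Cd74 (1009 and 1163), Socs2 (30.8 and 38.2), Stat3 (29.98 and 29.5), Gnai2 (23.3 and 26.3) and Tab2 (13.5 and 14.8).

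Many, though not all, leukocyte markers were lower in the library labelled Mst1/2-deleted. There, 7 of 21 measured ligands and antagonists were lower at 1.5-fold, the failed Ccl27a included, and 7 were above 0. Of 10 general leukocyte genes 7 were measured, 5 of them lower and none higher at 1.5-fold on the log2(FPKM + 1) scale. By this rule 2.59% of all genes were lower and 3.02% higher. The summed FPKM of the 10 leukocyte genes was 46.9 and 37.9, or 16.6 and 5.44 without Lcp1 (30.3 and 32.5), the most abundant. Ptprc, the CD45 gene that defines leukocytes, had 0.519 and 0.172. Of 18 macrophage genes 9 were measured, 5 of them lower and none higher. The macrophage sum was nearly equal, 262 and 258. Most of it was Chi3l1 (191.5 and 235.4), and without that gene it was 70.7 and 22.8. Csf1r, the receptor for macrophage growth factors, went the other way at 0.984 and 1.80 (ratio 1.83, 1.43 to 2.37). Among the macrophage genes, Cd14 had FPKM of 21.9 and 9.13 and Ear1 had 6.05 and 0.512. Chi3l1, Lcp1 and Cd14 stood far above Ptprc in both libraries, and which cells they came from was not tested. Of the 18, C1qa, C1qb, Emr1 (the F4/80 gene) and Fabp4 were listed at 0 in the library labelled Mst1/2-deleted alone, with control FPKM of at most 1.13. Il1a, Il1b, Ccl3 and Ccl17 are known products of macrophages and dendritic cells as well as of epithelium. The part of these cells in the differences was not tested, and in pooled RNA fewer cells of a type and less RNA per cell cannot be told apart. Neutrophil genes summed to 11.3 and 5.74, of which Ltf, also made by airway glands, had 8.31 and 4.16. Dendritic cell genes summed to 2.66 and 1.97, with 1 of 9 measured and none 1.5-fold apart on the log2(FPKM + 1) scale. B cell genes summed to 3.36 and 4.79, with 2 of 7 measured, both above 0 and neither 1.5-fold apart on the log2(FPKM + 1) scale. Mast cell and basophil genes summed to 0.219 and 0.390. T and NK cell genes summed to 2.52 and 1.52 with none of 11 measured, and 4 of 7 mast cell and basophil genes were listed at 0 in both libraries. Some genes of other cell types were lower too. Of 11 mesenchymal genes 4 were measured, 2 of them lower and none higher at 1.5-fold. Of 11 endothelial genes only Kdr was measured, and it was lower (9.05 and 5.11). The rest of that list was under FPKM of 1 and did not share a direction. Pecam1 had 0.878 and 0.565 and Cdh5 had 0.425 and 0.475, so Kdr does not stand for the list.

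Epithelial markers differed too. All 5 measured mucous cell genes and 3 of 8 measured basal cell genes were lower at 1.5-fold, and 8 of 11 alveolar type 1 cell genes were higher, with none past that limit in the opposite direction in these lists. All 8 measured ciliated cell genes were above 0, 3 of them 1.5-fold higher, and 2 of 10 club cell genes were lower. Of 12 alveolar type 2 cell genes 11 were above 0, and 1 was 1.5-fold higher. Of all genes, 3.02% were higher and 2.59% lower by this rule. Il1f9 is a product of squamous and airway epithelium, and its part in a shift between epithelial cell types was not tested either.

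**Figure D4:**
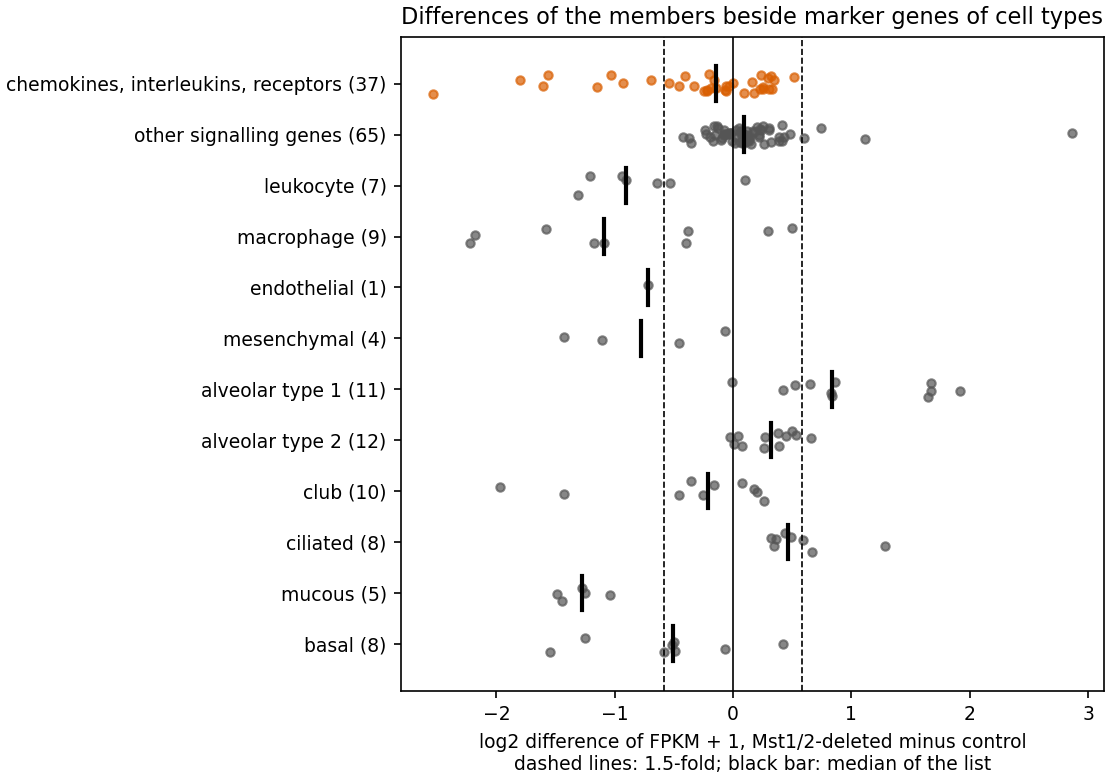
Each point is the log2 difference of FPKM + 1, library labelled Mst1/2-deleted minus control, of 1 measured gene, with the number of genes beside each list, black bars at list medians and dashed lines at 1.5-fold. The members (orange, median -0.14) spread to the left past the dashed line. So do genes of the leukocyte, macrophage, endothelial, mesenchymal, club, mucous and basal lists, while alveolar type 1 cell genes lie to the right. The signalling gene farthest right is Irak1, whose control estimate failed.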

How the data were processed

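RNA-seq of 2 libraries was used, each from pooled RNA of 4 mice and prepared with Nextera XT, per the labels. TopHat and Cufflinks were used with mm9, per the submitters' processing notes; the sources used here give no version, read length or strandedness. An FPKM value, a coverage signal (mean read depth), a length and an estimation status were deposited for each of 28107 transcript rows, per the file headers. Starts were raised by 1, because 99.5% of 655 microRNA rows had the stated length only when counted from 0.

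FPKM was summed per gene symbol, 189 rows for the members. The deposited values are not counts and there is 1 library per genotype, so no test was run. Differences are log2 of (FPKM + 1) over (FPKM + 1) for genes with FPKM of at least 1 in a library. Approximate reads are coverage times length over 47.1 bases, the median of low single-transcript rows between 25 and 75 bases. For symbols with several rows the interval was centred on the FPKM ratio. Amplified reads are not independent molecules. Values of overlapping or near-identical genes depend on how Cufflinks shared reads.

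Members, lists and rules were chosen with earlier results of these data known. Both FPKM values were given for measured members, and full ratios for those past 1.5-fold, the 3 nearest to that limit on each side and the 10 most abundant. Ratios or intervals of some other measured members, Il17ra and Cxcr4 among them, are given outside that rule. Members under FPKM of 1 are named as partners of measured ones or as genome neighbours; the latter, and the choice of 6 promoters, were made after values were seen. Of the 4 signalling genes counted as higher, 1 is not reported here. Alternatives changed the pseudocount, the filter, the fold, the row per symbol, the status and the scaling. Python 3.11.15, numpy 2.4.6, pandas 2.3.3, scipy 1.17.1 and matplotlib 3.10.9 were used.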

Additional observations from a re-analysis of the deposited data

How the results depend on the processing

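For the 20 members named in detail, 149 differences were recomputed under 8 alternatives to the pseudocount, filter, row choice, status and scaling. All kept their direction, and 116 stayed within their counting intervals. A changed pseudocount cannot reverse a direction, and the filters and the status rule left each retained value as it was. Much of this agreement was thus fixed in advance. Counts moved more. With a pseudocount of 5 or with the filter at FPKM of 5, 1 member was lower, Il1f9, beside 0.684% and 2.45% of all genes. Under that filter the members' median was 0.17, above 0. With a pseudocount of 0.1, 1 member was higher and 10 were lower, beside 6.17% and 4.79% of all genes. After conversion to TPM, which raises all values and so admits 74 members, 6 were higher and 26 lower with a median of -0.28, and of the signalling genes 8 were higher and 6 lower, beside 6.79% and 8.79% of all genes. Higher signalling genes numbered 7 with a pseudocount of 0.1, beside 6.17% of all genes, and 2 with a pseudocount of 5, beside 0.845%. They numbered 2 with accepted estimates only and 2 at 2-fold, beside 2.92% and 0.754%. At 2-fold 6 members were lower, beside 0.975% of all genes. The same 8 members were lower with the highest row per symbol, beside 2.85% of all genes. With differences centred on the median of all genes these and 1 more were lower, beside 3.27%. Counting each fragment as 2 reads, an alternative added after seeing the data, left 21 of 36 intervals without 1, against 24 as reported. No paired analysis was possible because each genotype has 1 library.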

Other observations

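Ccl20 and Ccr9, both under FPKM of 1, gave a similar total in both libraries that Cufflinks assigned to different transcripts of similar length. Ccl20 had about 12 and 13 reads and Ccr9 about 48 and 37. Nearly all of the Ccl20 signal was assigned to a transcript of 802 bases in the control library (FPKM 0.561). In the second library it was assigned to another of 799 bases (0.661). For Ccr9, 0.404 was assigned to a transcript of 4392 bases in the control library and 0.357 to one of 4324 bases in the other. Il15ra, at 1.85 in both libraries, was split as 0.906 on a transcript of 792 bases and 0.940 on one of 1451 bases in the control library, and as 0.3002 and 1.55 in the other. Il18r1 kept its 3 transcripts in the same order, with the longest at 10.1 and 13.8. These splits are the authors' estimates, carry no error here and were not tested.

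Among members under FPKM of 1 in both libraries, Cxcl13, which attracts B cells through Cxcr5, came nearest to it, at 0.993 and 0.208. Il10 had 0.736 and 0.694, Il2ra 0.657 and 0.415, and Ccr6, the receptor for Ccl20, 0.436 and 0.539.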
